A study of Mus musculus with 16 samples.

Results

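BC048679, Rab15, Cyp2e1, Npr3 and Pak1 are 5 genes, of 23970 gene symbols measured by RNA sequencing in mouse quadriceps, whose expression differed widely between diets and which are grouped here as lying outside the core genes of lipid metabolism. They were chosen for the size of their diet differences before or after exercise, so those differences are given here as a description without a test. All 5 genes passed the filter for low values, an average over the 16 libraries of 0.5 FPKM or more (fragments per kilobase of transcript and per unit of mapped fragments, a level scaled for gene length and library size), which 11256 genes passed. The mean of Rab15 in CON-pre alone, 0.429 FPKM, lay under that limit.

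The samples were quadriceps of C57BL/6NTac mice aged 16 weeks, all wild type and, per the study's methods, male. The mice ate a control diet (CON, 10% of energy from fat) or a high-fat diet (HFD, 60% of energy from fat) for 10 weeks. Muscle of the groups CON-pre and HFD-pre was taken at rest, and that of CON-post and HFD-post 3 h after a treadmill test run to exhaustion, with 4 biological replicates in each of the 4 groups. Mice of the pre groups were also accustomed to the treadmill and, per the methods, fasted for the same period, and pre and post are different animals. After the test the post mice had water but no food. Whether the fast of the pre groups covered those hours too is not spelled out. Whole muscle was sequenced, so fewer cells of a type and less RNA per cell cannot be told apart.

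The proteins act in separate systems. Npr3 is the clearance receptor of the natriuretic peptides: it has no guanylyl cyclase domain, takes the peptides into the cell and so limits their signal through Npr1 and Npr2, and it also binds musclin, a peptide made by muscle from the gene Ostn. Pak1 is a protein kinase switched on by the small GTPases Rac1 and Cdc42, which shape the actin cytoskeleton and take part in the movement of the glucose transporter GLUT4 to the muscle surface. Rab15 is a small GTPase of early and recycling endosomes. Cyp2e1 is a cytochrome P450 that oxidises ethanol, acetone and many small foreign compounds, and is known best from liver; it can also hydroxylate fatty acids. BC048679 is named after a cDNA clone, and no function is given for it here.

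Gene positions were taken from RefSeq on mouse build GRCm38.p6. BC048679 spans chr7:81494274-81498330 on the minus strand, and Cyp2e1 (chr7:140763819-140774990) and Pak1 (chr7:97788541-97912381) lie on the plus strand of the same chromosome. Rab15 lies at chr12:76797960-76822759 and Npr3 at chr15:11839896-11907837, both on the minus strand. Long non-coding genes overlap Rab15 (Gm34988), Npr3 (Gm5144) and Pak1 (Gm39050). The library kit keeps strand, but the strand setting of the counting is not given in the sources used here, so reads of these overlapping genes could not be separated.

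BC048679 and Rab15 moved together across libraries, as described further on, and the bases upstream of their start sites are therefore shown. The following are the 250 bases before the BC048679 start, at chr7:81498331-81498580, and before the first of the 4 starts listed for Rab15 in the promoter table, at chr12:76822525-76822774. The annotated Rab15 span reaches 235 bases beyond that start, so most of the bases printed for Rab15 lie within the span. Both are RefSeq GRCm38.p6 sequence on the minus strand, 5′ to 3′, with matches to any of the 6 searched motifs in capitals, which here are all GGGCGG or its reverse, CCGCCC.
BC048679: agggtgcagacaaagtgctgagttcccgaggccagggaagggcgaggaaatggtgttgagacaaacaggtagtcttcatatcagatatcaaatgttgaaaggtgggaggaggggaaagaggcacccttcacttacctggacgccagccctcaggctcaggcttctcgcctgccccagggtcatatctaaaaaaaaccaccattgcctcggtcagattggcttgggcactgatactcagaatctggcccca
Rab15: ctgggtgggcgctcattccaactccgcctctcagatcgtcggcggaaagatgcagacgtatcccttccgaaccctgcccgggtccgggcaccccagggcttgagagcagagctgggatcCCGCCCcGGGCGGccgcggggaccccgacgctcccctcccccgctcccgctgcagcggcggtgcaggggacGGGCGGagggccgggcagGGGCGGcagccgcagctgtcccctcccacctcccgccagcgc
With the 50 bases after the start included, the Rab15 window held 76.3% G and C and the BC048679 window 54.0%, against a median of 52.7% over 32851 promoters of 300 bases. The Rab15 window had 4 matches to GGGCGG, which 35.7% of all promoters hold, and the BC048679 window had 0. The windows of the later Rab15 starts held 56.7%, 52.7% and 47.3% G and C, with 0, 1 and 0 matches. Both Pak1 windows also had 4 matches each. On both strands, the 9 windows of the starts listed for the 5 genes held no match to AGGTCA (16.3% of all promoters), and so none to AAAGGTCA (1.51%) or to the direct repeat of AGGTCA with 1 base between (0.0396%), which contain it. They also held none to GTAAACA (3.65%). CACGTG (7.15%) had 1 match, in the window of the first Pak1 start. The bases before the outer ends of the Rab15 and Npr3 spans, the latter 466 bases beyond its listed start, were not searched. A match describes the letters of the window and is not a binding site.

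BC048679 was higher on the high-fat diet, by 3.9-fold before and 4.57-fold after exercise. Before exercise its levels were 4.91, 3.37, 8.15 and 5.77 FPKM in CON-pre (5.55 ± 2.00, mean ± SD, n = 4) and 21.5, 14.9, 20.1 and 30.1 FPKM in HFD-pre (21.6 ± 6.28, n = 4). After exercise they were 5.86, 5.42, 7.71 and 5.94 FPKM in CON-post (6.23 ± 1.01, n = 4) and 38.8, 25.1, 20.6 and 29.6 FPKM in HFD-post (28.5 ± 7.79, n = 4). The lowest of the 8 HFD libraries, at 14.9 FPKM, lay above the highest of the 8 CON libraries, at 8.15 FPKM. On the scale of log2(FPKM + 0.5), which understates the change of low genes, the diet difference was 1.89 (SE 0.24) before and 2.08 (SE 0.24) after exercise, ranking 18 and 11 by size among the 11256 genes.

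Rab15 was expressed at a low level and was also higher on the high-fat diet, by 5.31-fold before and 3.02-fold after exercise. Before exercise it measured 0.397, 0.0937, 0.832 and 0.392 FPKM in CON-pre (0.429 ± 0.304, n = 4) and 3.12, 1.61, 1.97 and 2.41 FPKM in HFD-pre (2.28 ± 0.652, n = 4). After exercise it measured 0.767, 0.776, 0.911 and 1.06 FPKM in CON-post (0.879 ± 0.139, n = 4) and 4.08, 2.06, 2.18 and 2.29 FPKM in HFD-post (2.65 ± 0.958, n = 4). The 8 HFD libraries all lay above the 8 CON libraries, and replicate 2 of CON-pre, which held the lowest value, also had the lowest relative depth of all libraries, 0.702. The log2 diet difference was 1.61 (SE 0.23) before and 1.16 (SE 0.23) after exercise. The first value moved to 2.33 with a pseudocount of 0.1 and to 1.20 with a pseudocount of 1.

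Cyp2e1 was lower on the high-fat diet, by 3.91-fold before and 2.72-fold after exercise. It measured 25.9, 27.5, 23.5 and 31.4 FPKM in CON-pre (27.1 ± 3.29, n = 4) and 6.64, 6.09, 6.47 and 8.52 FPKM in HFD-pre (6.93 ± 1.09, n = 4). The pre groups stood well apart. After exercise the values spread more, with 17.5, 28.7, 26.4 and 55.2 FPKM in CON-post (31.9 ± 16.2, n = 4) and 7.95, 20.3, 8.65 and 10.03 FPKM in HFD-post (11.7 ± 5.78, n = 4). The post groups overlapped, since replicate 2 of HFD-post (20.3 FPKM) exceeded replicate 1 of CON-post (17.5 FPKM). The log2 diet difference was −1.90 (SE 0.29) before and −1.38 (SE 0.29) after exercise. The second value moved to −1.67 without replicate 2 of HFD-post and to −1.08 without replicate 4 of CON-post, which held 55.2 FPKM.

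Npr3 was 1.67-fold higher on the high-fat diet before exercise and 3.51-fold higher after it. Its levels were 0.695, 1.05, 0.786 and 1.14 FPKM in CON-pre (0.917 ± 0.21, n = 4) and 1.84, 1.14, 1.52 and 1.62 FPKM in HFD-pre (1.53 ± 0.291, n = 4). These groups nearly touched, at 1.138 FPKM for the highest CON-pre library and 1.144 FPKM for the lowest HFD-pre library. After exercise the levels were 0.926, 0.959, 0.732 and 0.939 FPKM in CON-post (0.889 ± 0.105, n = 4) and 2.32, 2.91, 3.0 and 4.24 FPKM in HFD-post (3.12 ± 0.804, n = 4), with a wide gap between the diets. The log2 diet difference was 0.52 (SE 0.16) before and 1.36 (SE 0.16) after exercise, ranks 258 and 34 by size.

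Pak1 was the member with the smallest diet difference before exercise as a ratio, 1.48-fold lower on the high-fat diet, and was 1.66-fold lower after exercise. It measured 8.68, 10.2, 8.10 and 6.66 FPKM in CON-pre (8.41 ± 1.47, n = 4) and 5.23, 6.44, 5.74 and 5.27 FPKM in HFD-pre (5.67 ± 0.563, n = 4). After exercise it measured 6.57, 7.14, 7.21 and 6.999 FPKM in CON-post (6.98 ± 0.286, n = 4) and 3.30, 4.36, 4.35 and 4.77 FPKM in HFD-post (4.19 ± 0.627, n = 4). The highest HFD library (6.44 FPKM) lay just under the lowest CON library (6.57 FPKM). The log2 diet difference was −0.52 (SE 0.12) before and −0.68 (SE 0.12) after exercise.

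**Figure D1:**
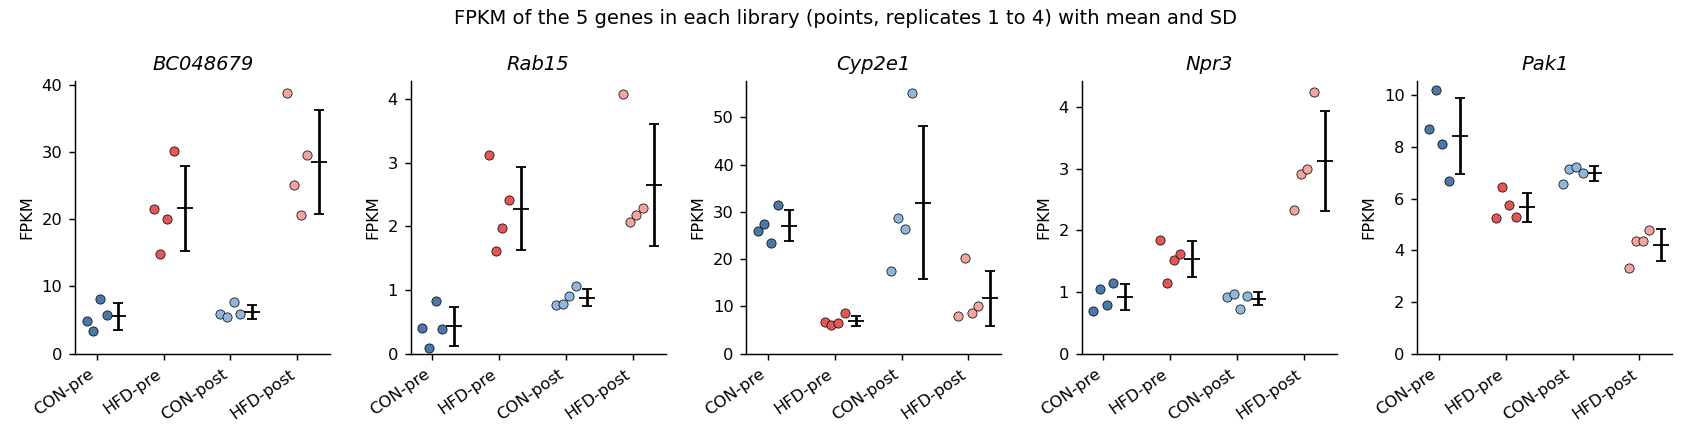
Expression of the 5 genes (y axis, FPKM) in the 16 libraries, by group (x axis); points are replicates 1 to 4 from left to right, and the bar beside them is the mean with its SD. BC048679, Rab15 and Npr3 lie higher and Pak1 lower in all 8 HFD than in all 8 CON libraries, while for Cyp2e1 an HFD-post library at 20.3 FPKM lies above a CON-post library at 17.5 FPKM.

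Diet groups did not overlap for 5 of the 5 genes before exercise and for 4 of 5 after it. Of all genes tested, 5.62% did not overlap before and 3.16% after exercise, and all 8 HFD libraries lay on one side of all 8 CON libraries for 0.391% of genes, among them 4 of the 5. Because these contrasts chose the genes, nothing is read from the counts. The share of each gene's variation on the log2 scale, as sums of squares over the 16 libraries, was described in the same way. Diet took 88.0% for BC048679, 76.3% for Rab15, 75.7% for Cyp2e1, 64.6% for Npr3 and 64.6% for Pak1. For Npr3, 12.8% fell on the interplay of diet and exercise, against 0.206% to 2.06% for the other 4 genes.

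The rule that chose the genes did not name the exercise effect averaged over both diets. In this balanced design that effect is independent of both diet contrasts only where the 4 groups vary alike. For Npr3 the SD was 0.105 FPKM in CON-post and 0.804 FPKM in HFD-post, so its exercise test is not fully free of the choice. The averaged exercise effect was tested with limma, with Benjamini-Hochberg adjustment over all 11256 genes. Of these, 3.86% were called at an adjusted p under 0.05, 2.95% as higher and 0.915% as lower. That split of 332 higher and 103 lower genes moved with scaling, to 309 and 176 with median-of-ratios scaling, 287 and 245 with quantile normalization and 253 and 273 with upper-quartile scaling. Pak1 fell by 0.32 on the log2 scale after exercise (SE 0.08, adjusted p = 0.0436 by limma), and was the only one of the 5 genes to be called. Its call was close to the threshold: it was lost under 16 of 28 alternatives, among them leaving out any 1 library other than replicate 4 of CON-pre, HFD-pre or HFD-post, and adjusted p ranged from 0.0117 to 0.0952 by limma.

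Npr3 differed by 0.40 (SE 0.11, adjusted p = 0.0543 by limma), and passed under 7 of 28 alternatives. Its adjusted p over the 28 ranged from 0.0277 to 0.224 by limma. Rab15 differed by 0.40 (SE 0.16, adjusted p = 0.208 by limma), with an interval from 0.07 to 0.72 before adjustment. Intervals here reach 2 SE to either side, which is only roughly a 95% interval. For BC048679 the difference was 0.30 (SE 0.17, adjusted p = 0.367 by limma, interval from −0.04 to 0.64). For Cyp2e1 it was 0.37 (SE 0.20, adjusted p = 0.351 by limma, interval from −0.04 to 0.78). The Cyp2e1 value moved to 0.223 without replicate 4 of CON-post, to 0.229 without replicate 2 of HFD-post and to 0.164 with an adipocyte marker score as a covariate.

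Within a diet, exercise differences share libraries with the contrasts that chose the genes and are given without a test. In HFD mice, Npr3 was 2.03-fold higher in HFD-post than in HFD-pre, a log2 difference of 0.82 (SE 0.16), and the groups did not overlap, as for 6.81% of all genes. In CON mice its difference was −0.02 (SE 0.16). The diet difference of Npr3 was therefore larger after than before exercise by 0.84 (SE 0.22) on the log2 scale, which ranked 117 of 11256 by size. Pak1 was 1.35-fold lower in HFD-post than in HFD-pre, again without overlap, and 1.2-fold lower in CON-post than in CON-pre, where the groups overlapped. For Rab15 the log2 difference was 0.62 (SE 0.23) in CON and 0.17 (SE 0.23) in HFD mice, and for Cyp2e1 it was 0.12 (SE 0.29) and 0.63 (SE 0.29), all with overlap. For BC048679 it was 0.20 (SE 0.24) and 0.39 (SE 0.24).

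**Figure D2:**
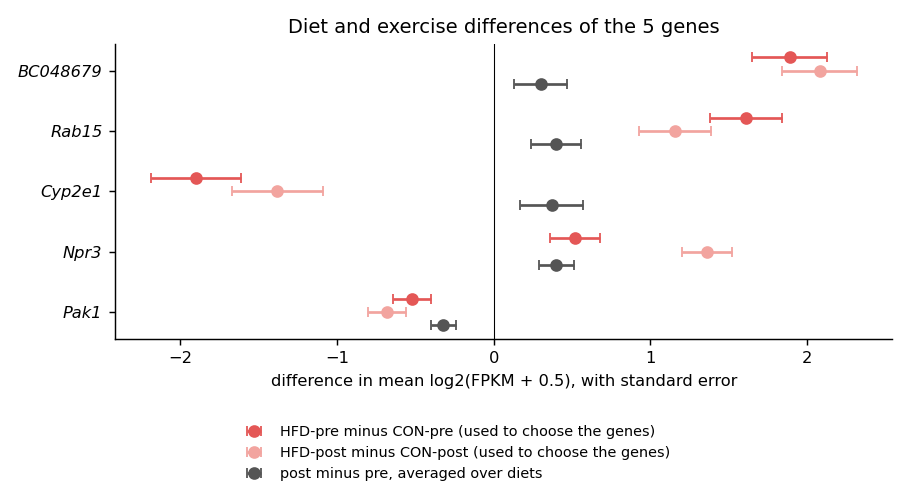
Differences in mean log2(FPKM + 0.5) (x axis) for the 5 genes (y axis) between diets before exercise, between diets after exercise, and between post and pre averaged over diets; bars are standard errors from the fit of 16 libraries. The diet differences, which chose the genes, run from −1.90 for Cyp2e1 to 2.08 for BC048679, while the averaged exercise differences run from −0.32 for Pak1 to 0.40 for Rab15 and Npr3.

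Across the 16 libraries BC048679 and Rab15 had a Pearson correlation of 0.95 in log2 values, and of 0.82 after the group means were removed. These are descriptions: the libraries share the groups, and the genes were chosen by them. With group means removed, Pak1 went against both, at −0.64 with BC048679 and −0.70 with Rab15, while the other pairs lay between −0.20 and 0.19. Replicate 1 of HFD-post held the highest value of both BC048679 (38.8 FPKM) and Rab15 (4.08 FPKM), and the lowest of Pak1 (3.30 FPKM). Of the 16 libraries it also had the lowest FPKM sum, 283575, and the highest sum of the liver markers described further on, 35.3 FPKM. The part of these library traits in the correlations was not tested.

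The genes whose pattern was most like that of BC048679 over the 16 libraries, among 11255 others, were Ech1 (r = 0.983), Cpt2 (0.969) and Decr1 (0.961). All 3 encode mitochondrial proteins of fatty acid oxidation: Ech1 and Decr1 handle unsaturated fatty acids, and Cpt2 forms acyl-CoA inside the mitochondrion. Ech1 averaged 99.9 FPKM in CON-pre, 183 in HFD-pre, 115 in CON-post and 203 in HFD-post, so that its levels were higher and its diet ratio smaller than those of BC048679. The genes most like Rab15 were Acadvl (0.960), which encodes the very-long-chain acyl-CoA dehydrogenase, Ech1 (0.951) and BC048679 (0.948). With group means removed, the correlation was 0.85 for BC048679 with Ech1 and 0.81 for Rab15 with Acadvl.

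**Figure D3:**
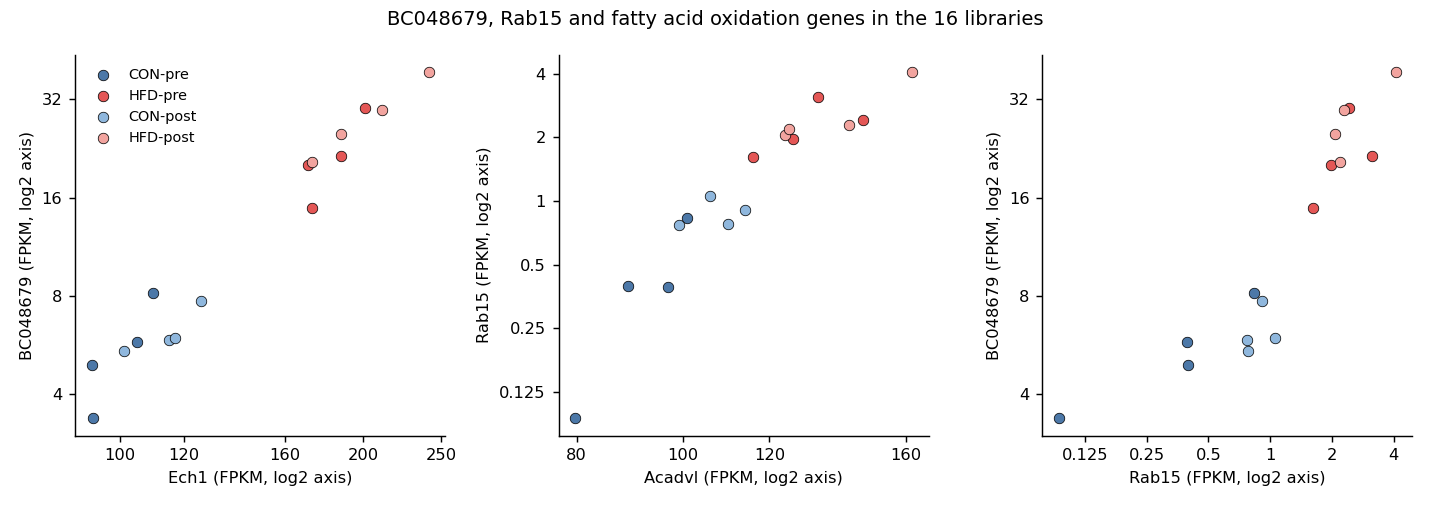
BC048679 against Ech1, Rab15 against Acadvl, and BC048679 against Rab15 (both axes FPKM on a log2 scale), 1 point for each of the 16 libraries, coloured by group. The HFD libraries lie up and to the right of the CON libraries in each panel, and replicate 1 of HFD-post is at the upper right, at 38.8 FPKM of BC048679 and 4.08 FPKM of Rab15.

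None of the tested neighbours on the chromosome was called between diets. Ap3b2 lies 277 bases from BC048679 and averaged 0.0286 FPKM, under the filter. Fsd2, on the other side at 36024 bases, averaged 94.3 FPKM, with log2 diet differences of −0.15 before (adjusted p = 0.665 by limma) and −0.13 after exercise (adjusted p = 0.91 by limma), while it fell by 0.30 after exercise averaged over diets (adjusted p = 0.00592 by limma). Fntb, beside Rab15, differed by 0.12 before exercise (adjusted p = 0.886 by limma). Tars and Sub1, on either side of Npr3, differed between diets by at most 0.13 in size on the log2 scale, and the other neighbours, Gpx2, Olfr541, Syce1, Aqp11 and Gdpd4, were under the filter.

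Of the Rab GTPases and genes of GLUT4 traffic, a list of 36, 34 were tested beside Rab15. None was called between diets before or after exercise by limma, where 0.346% and 0.151% of all genes were called, and 4 and 1 had an unadjusted p under 0.05, as did 8.25% and 6.29% of all genes. Their median log2 diet difference was −0.058 before exercise, against −0.034 over all genes. Averaged over diets, 1 rose and 1 fell after exercise, where 3.86% of all genes were called. Tbc1d1, a Rab GTPase-activating protein that restrains GLUT4 traffic, rose by 0.52 (SE 0.13, adjusted p = 0.0315 by limma), a call lost under 11 of 28 alternatives. Rab4a, a GTPase of early endosomes, fell by 0.36 on the log2 scale (SE 0.09, adjusted p = 0.0399 by limma), a call lost under 13 of 28. Rep15, an effector of Rab15, averaged 0.216 FPKM and was under the filter.

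In the natriuretic peptide list, 8 of 15 genes were tested beside Npr3. The peptide genes Nppa and Nppb were listed at 0 FPKM in every group, and Nppc averaged 0.159 FPKM. The signalling receptors Npr1, at 3.00 FPKM, and Npr2, at 11.2 FPKM, passed no test between diets, with log2 differences of −0.08 and −0.12 before and of −0.04 and 0.05 after exercise. The level of Npr1 was 2.77 ± 0.249 FPKM in CON-pre (n = 4) and 3.25 ± 0.452 FPKM in HFD-post (n = 4), against 0.917 ± 0.21 and 3.12 ± 0.804 FPKM for Npr3.

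Ostn, which encodes the Npr3 ligand musclin, was the single gene of this list called, between diets before exercise (0.346% of all genes were called) and for exercise averaged over diets (3.86%). It measured 2.44, 4.37, 3.44 and 3.03 FPKM in CON-pre (3.32 ± 0.81, n = 4) and 9.22, 10.6, 5.06 and 9.34 FPKM in HFD-pre (8.56 ± 2.41, n = 4). The pre groups did not overlap, and Ostn was higher in HFD-pre by 1.22 on the log2 scale (SE 0.20, adjusted p = 0.0107 by limma), a call lost with only those 2 groups in the fit (adjusted p = 0.0684 by limma). After exercise it measured 2.55, 3.02, 2.70 and 3.41 FPKM in CON-post (2.92 ± 0.381, n = 4) and 3.01, 5.13, 4.32 and 4.25 FPKM in HFD-post (4.18 ± 0.874, n = 4). These groups overlapped, and the diet difference was 0.44 (SE 0.20, adjusted p = 0.765 by limma). Averaged over diets Ostn fell by 0.53 on the log2 scale (SE 0.14, adjusted p = 0.0467 by limma), a call lost under 17 of 28 alternatives, with adjusted p between 0.00541 and 0.1 by limma. The ligand gene and its receptor gene thus had their highest group means in different groups, Ostn in HFD-pre and Npr3 in HFD-post.

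The gene most like Npr3 over the 16 libraries was Lep, which encodes the fat cell hormone leptin (r = 0.921, and 0.89 with group means removed). It was followed by Nnat (0.859) and Adcy5 (0.858). Lep averaged 0.514 FPKM in CON-pre, 4.52 in HFD-pre, 0.632 in CON-post and 8.46 in HFD-post. Replicate 4 of HFD-post held the highest value of both Npr3 (4.24 FPKM) and Lep (17.8 FPKM).

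Adipocyte markers are given beside Npr3 because fat cells also express it. All 16 markers were detected, and their summed level was 439 to 569 FPKM in CON-pre, 411 to 503 in HFD-pre, 481 to 668 in CON-post and 464 to 775 in HFD-post. On average most of the sum was Fabp4, at 276 FPKM in CON-pre and 297 FPKM in HFD-pre. The sum also includes Cfd, which encodes adipsin and averaged 105 FPKM in CON-pre and 27.4 FPKM in HFD-pre. It thus follows a few abundant markers, while 9 of the 14 markers tested were higher and 5 lower in HFD-pre. Of the 14, Lep was called higher and Cfd lower in both diet contrasts, where 0.346% and 0.151% of all genes were called, and none of the others was called there. At an unadjusted p under 0.05 were 8 before and 4 after exercise, in both directions, against 8.25% and 6.29% of all genes. For exercise averaged over diets, 12 of the 14 were higher and 2 lower, with a median log2 difference of 0.272 against 0.014 over all genes, and Pnpla2, which encodes the main triglyceride lipase of fat cells, was called higher by 0.43 (adjusted p = 0.00098 by limma). With group means removed, Npr3 had a correlation of 0.63 with the mean score of the 14 markers. With that score as a covariate, the log2 diet difference of Npr3 was 0.50 before and 1.22 after exercise, and its averaged exercise difference was 0.27 (adjusted p = 0.224 by limma). Vessel cells express Npr3 too: the 8 endothelial markers summed to 51.9 to 66.4 FPKM in CON-pre, 57.1 to 71.4 in HFD-pre, 60.2 to 77.9 in CON-post and 63.8 to 71.0 in HFD-post. Of these 8, all were higher in HFD-pre than CON-pre, with a median of 0.194 against −0.034 over all genes. None was called and 2 had an unadjusted p under 0.05, against 8.25% of all genes, while after exercise 4 were higher and 4 lower. The 7 markers of vascular smooth muscle and pericytes were all higher in HFD mice, with a median of 0.176 before and 0.104 after exercise. None of the 7 was called by limma, with 1 and 0 at an unadjusted p under 0.05, against 8.25% and 6.29% of all genes. For exercise averaged over diets, Pecam1 of the endothelial list was higher by 0.36 (adjusted p = 0.00141 by limma) and Tagln of the smooth muscle list by 0.43 (adjusted p = 0.0215 by limma). The part of fat and vessel cells in the Npr3 values was not tested beyond the covariate.

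**Figure D4:**
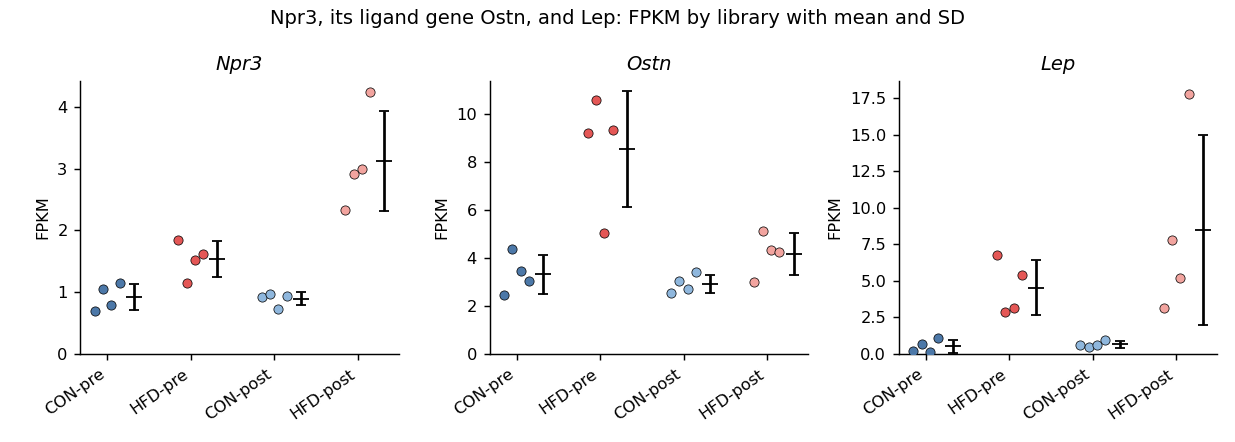
FPKM (y axis) of Npr3, Ostn and Lep in the 16 libraries by group (x axis); points are replicates 1 to 4 from left to right, and the bar beside them is the mean with its SD. Npr3 and Lep are highest in HFD-post, with means of 3.12 and 8.46 FPKM, while Ostn is highest in HFD-pre, with a mean of 8.56 FPKM.

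For Cyp2e1, the list of P450 enzymes and of enzymes of ethanol or acetone oxidation held 31 genes, of which 25 were tested beside it. Before exercise 1 was called higher and 1 lower on the high-fat diet, against 0.346% of all genes in either direction. Cyp2f2, a P450 best known from lung and liver, was lower, with 1.79, 1.86, 1.62 and 2.86 FPKM in CON-pre (2.03 ± 0.559, n = 4) and 0.659, 0.314, 0.363 and 0.636 FPKM in HFD-pre (0.493 ± 0.18, n = 4). The log2 difference was −1.34 (SE 0.23, adjusted p = 0.0138 by limma). The call was lost without replicate 4 of CON-pre (adjusted p = 0.0503 by limma), replicate 2 of HFD-pre (adjusted p = 0.0578 by limma) or replicate 3 of HFD-pre (adjusted p = 0.0567 by limma). After exercise the difference was −1.19 (SE 0.23, adjusted p = 0.0626 by limma), the groups did not overlap, and it passed under 6 of 29 alternatives, with adjusted p from 0.0179 to 0.325 by limma over the 29.

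Cat, which encodes catalase, was higher in HFD-pre by 0.55 (SE 0.11, adjusted p = 0.0458 by limma), a call lost under 16 of 29 alternatives. Aldh2, the mitochondrial aldehyde dehydrogenase of ethanol breakdown, rose after exercise averaged over diets by 0.23 (SE 0.06, adjusted p = 0.0327 by limma), lost under 14 of 28. Por, which passes electrons to the P450 enzymes, differed by 0.26 (adjusted p = 0.0759 by limma). None of the 25 was called between diets after exercise by limma, where 0.151% of all genes were, and 8 had an unadjusted p under 0.05, against 6.29% of all genes.

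Cyp2f2 was also the gene most like Cyp2e1 (r = 0.920, and 0.61 with group means removed), followed by Sorl1 (0.900) and Cfd (0.879). Cfd averaged 105 FPKM in CON-pre, 27.4 in HFD-pre, 114 in CON-post and 38 in HFD-post. Fat cells and liver both express Cyp2e1, so their markers are given beside it. The correlation of Cyp2e1 with the adipocyte score was 0.50 with group means removed, and with the score as a covariate its log2 diet difference was −1.93 before and −1.62 after exercise. Over the 14 adipocyte markers tested, the median log2 diet difference was 0.103 before exercise against −0.034 over all genes. After exercise 10 were higher and 4 lower, with a median of 0.251 against 0.004.

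The 10 liver markers summed to between 0.271 and 35.3 FPKM over the 16 libraries, and none of them was at 0 in all. Before exercise the sum was 0.346 to 28.6 FPKM in CON-pre and 0.309 to 30.7 FPKM in HFD-pre, a wide and overlapping range in both groups. After exercise it was 0.271 to 1.37 FPKM in CON-post and 0.872 to 35.3 FPKM in HFD-post. The part of liver RNA in the Cyp2e1 values was not tested, and that of fat cell RNA was not tested beyond the adipocyte score as a covariate.

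**Figure D5:**
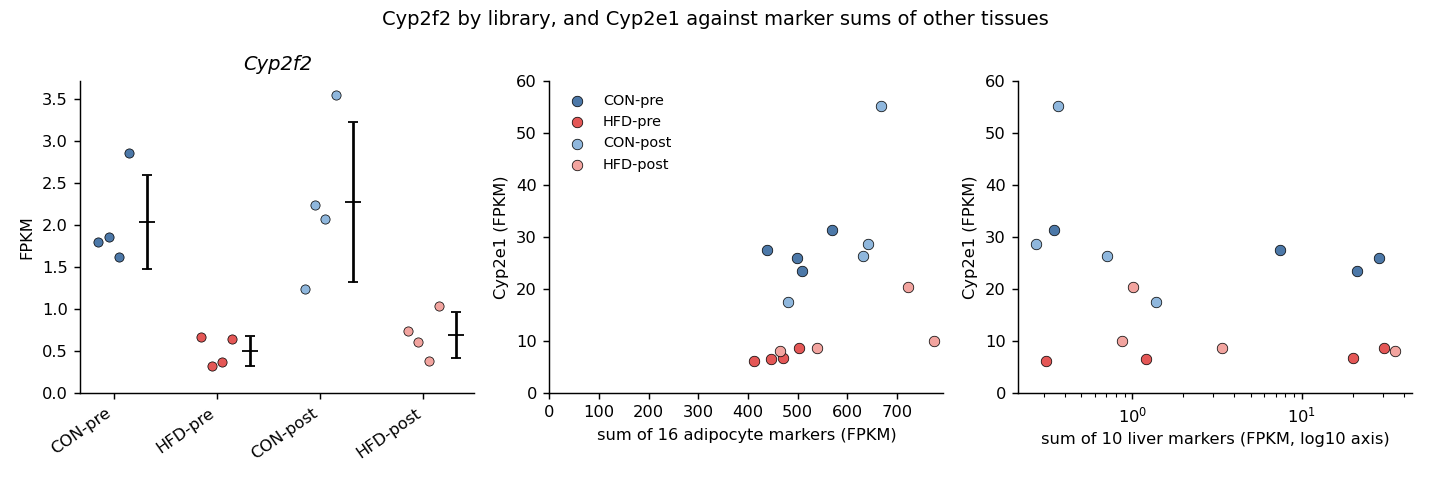
FPKM of Cyp2f2 by group with mean and SD (left), and Cyp2e1 (y axis, FPKM) against the summed FPKM of 16 adipocyte markers (middle) and of 10 liver markers on a log10 axis (right), 1 point for each of the 16 libraries. Cyp2e1 lies at 6.09 to 20.3 FPKM in HFD and 17.5 to 55.2 FPKM in CON libraries. On average most of the adipocyte sum is Fabp4.

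For Pak1, the list of Rac and PAK signalling held 31 genes, of which 26 were tested beside it. None was called in any of the 3 contrasts by limma. At an unadjusted p under 0.05 there were 7 for exercise averaged over diets, 2 between diets before and 2 between diets after exercise, against 18.5%, 8.25% and 6.29% of all genes. The lowest p between diets belonged to Tiam1, an activator of Rac1, with a log2 difference of 0.46 before (adjusted p = 0.252 by limma) and 0.30 after exercise (adjusted p = 0.758 by limma). Arhgef7 followed before exercise with 0.19 (adjusted p = 0.474 by limma) and Limk1, a kinase downstream of Pak1, with −0.34 (adjusted p = 0.643 by limma). For exercise averaged over diets the lowest were Rhou, at 0.28 (adjusted p = 0.0606 by limma), Tiam1, at −0.30 (adjusted p = 0.0925 by limma), and Nck1, at −0.18 (adjusted p = 0.197 by limma). Pak2, the close relative of Pak1, averaged 4.48 FPKM and differed between diets by −0.02 (SE 0.10) before and 0.01 (SE 0.10) after exercise, while Pak3 averaged 0.0136 FPKM, under the filter. Rac1 averaged 76.0 FPKM and Cdc42 65.5 FPKM, with log2 diet differences of −0.07 and −0.05 before exercise.

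The genes most like Pak1 were Mr1 (r = 0.875), Ckm (0.859), which encodes muscle creatine kinase, and Fgd4 (0.854), an activator of Cdc42. The gene that ran most opposite was Retsat (−0.950), which encodes a retinol saturase, at 12.3 FPKM in CON-pre, 16.7 in HFD-pre, 13.8 in CON-post and 21.7 in HFD-post. Beside the lower Pak1, the 9 skeletal muscle markers also summed lower on the high-fat diet before exercise, at 67400 to 74700 FPKM in CON-pre and 61300 to 66300 FPKM in HFD-pre. None of the 9 was called by limma, and 5 had an unadjusted p under 0.05, against 8.25% of all genes. In HFD-pre 7 were lower and 2 higher, Mb, which is among those 5, by 0.41 and Myh1 by 0.13 on the log2 scale. Their median log2 difference was −0.193, against −0.034 over all genes. After exercise the sums were 61700 to 70700 FPKM in CON-post and 55600 to 65000 FPKM in HFD-post. The part of this shift in the Pak1 values was not tested. Over all 28 alternatives, rescaled libraries included, the diet difference of Pak1 before exercise ran from −0.62 to −0.43. None of these alternatives adjusted for the muscle markers, and the gene was chosen by its diet differences.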

How the data were processed

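Libraries of poly(A) RNA from 16 quadriceps samples were analysed from the expression table the authors deposited. Per the labels and the study's methods, the authors used a stranded mRNA kit, FastQC, TopHat and Cufflinks. The deposited values are FPKM, scaled by the authors for transcript length and library size; depth and counting error are not known from them, and counts were not used. FPKM summed to 283575 to 329282 in a library, and a relative depth from low values ran from 0.702 to 1.13.

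From the 24487 entries, 27 named as dates were left out (0.0771% of FPKM) and repeated symbols were added up, giving 23970 symbols. The 11256 genes that averaged 0.5 FPKM or more were fitted on log2(FPKM + 0.5) with limma 3.58.1 in R 4.3.3, with the variance trended on expression, over the 4 groups together. A gene was called at a Benjamini-Hochberg adjusted p under 0.05. The fit was tested on simulated data. The lists are described by counts and medians. The genes and the lists were chosen with earlier results of these data known.

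Named were the 5 genes, the genes of the 4 pathway lists that passed the test, or where none did the genes of lowest p, a fixed set of partner genes, the 3 genes most correlated with each of the 5, and the nearest neighbours. Retsat, and the cell type markers other than Lep, Cfd and Ckm, were named after the values were seen. The labels name build mm9, but the loci in the authors' supplementary table overlapped GRCm38 for 692 of 692 genes and mm9 for 114, so RefSeq GRCm38.p6 positions were used. Alternatives were other pseudocounts, filters, scalings and weights, a covariate, a block and leaving out each library. Replicate numbers did not pair the samples (correlations from −0.22 to 0.213 for the same number). Protein sequences are not used here.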

Additional observations from a re-analysis of the deposited data

Results flagged for a closer look

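In 3 of the 20 groups of 4 libraries (5 genes in 4 groups), a single library lay far from the other 3 relative to the group's range, where chance alone gives about 1 in 20. Rab15 measured 4.08 FPKM in replicate 1 of HFD-post and 2.06 to 2.29 FPKM in the others. Cyp2e1 measured 20.3 FPKM in replicate 2 of HFD-post and 7.95 to 10.03 FPKM in the others, and that library had an adipocyte marker sum of 723 FPKM, while replicate 4, at 10.03 FPKM of Cyp2e1, had 775 FPKM. On average most of the adipocyte sum is Fabp4, and its part in the Cyp2e1 values was not tested. Npr3 measured 0.732 FPKM in replicate 3 of CON-post and 0.926 to 0.959 FPKM in the others.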

How the results depend on the processing

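No diet or averaged exercise difference of the 5 genes changed direction under the alternatives run. For the diet differences that was close to set in advance, since they chose the genes and the alternatives refit the same libraries. The pseudocount moved the log2 diet difference of Rab15 before exercise from 1.61 to 2.33 (0.1) and 1.20 (1), and that of Npr3 after exercise from 1.36 to 1.68 and 1.11. The averaged exercise difference of Pak1 lost its call with the adipocyte score as a covariate (−0.338), with no filter (−0.32) and with no trend (−0.32), and ran from −0.37 to −0.27 without each library in turn. That of Npr3 passed at an adjusted p under 0.1 (0.399), with array weights (0.431), median-of-ratios (0.385) or upper-quartile scaling (0.371) and a pseudocount of 1 (0.336), and ran from 0.33 to 0.454 without each library, passing without replicate 4 of CON-pre (adjusted p = 0.0375 by limma) or replicate 1 of HFD-post (adjusted p = 0.0299 by limma). The cause was not tested.

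Genes called after exercise between diets numbered 17, and 30 at an adjusted p under 0.1, 2 with only the groups compared, and 5 to 16 without each library. Before exercise they numbered 39, and 62 at an adjusted p under 0.1, 63 with array weights, and 21 to 44 without each library. For exercise they numbered 435, and 779 at an adjusted p under 0.1, 240 with the adipocyte covariate, and 246 to 566 without each library. With the replicate number as a block, which does not pair these samples, the counts were 17, 32 and 328, no call among the 5 genes changed (Pak1 −0.32, adjusted p = 0.0478 by limma), Cat lost its call (adjusted p = 0.119 by limma) and Cyp2f2 after exercise gained one (adjusted p = 0.0179 by limma), as it did under 5 other alternatives, without replicate 1 of CON-post among them (adjusted p = 0.0222 by limma). FPKM carries no depth, so low genes such as Rab15 and Npr3 have an unknown counting error.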
